A study of Mus musculus with 3 samples.

Results

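The genes described here carry glucose into the cell, break it down to pyruvate, and then turn pyruvate into lactate or pass it to the mitochondrion. They are Slc2a1, Hk1, Hk2, Pkm, Ldha, Ldhb, Slc16a1, Slc16a3, Mpc1 and Mpc2. They were chosen by symbol, and all 10 were found among the 44548 genes of the deposited table. RNA was sequenced from 3 libraries of Alpha6+/Sca1- cells, a sorted population of skin epithelium, from the back skin of WT mice at P56 (56 days of age, the second telogen, when hair follicles rest). All 3 libraries belong to 1 group with no treatment, the labels give no sex, and no knockout, transgene or second group was part of the samples used. Cells came from trypsin-treated skin, the antibody the labels name is against integrin alpha 6 alone, and whether mice were pooled is not said. The labels speak of biological duplicates while listing 3 samples, so the SDs below measure the spread between these libraries, which may be partly technical.

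In the cytosol, hexokinases trap glucose as glucose 6-phosphate and pyruvate kinase makes pyruvate at the last step of glycolysis. Lactate dehydrogenase, a tetramer of Ldha and Ldhb subunits, interconverts pyruvate and lactate, monocarboxylate transporters move both across the plasma membrane, and the Mpc1-Mpc2 carrier takes pyruvate into mitochondria for oxidation. In mouse skin, hair follicle stem cells are known for high lactate dehydrogenase activity, and genetic loss of Ldha or of Mpc1 in these cells is known to change when follicles enter the growth phase. Several of these genes, among them Ldha, Slc2a1, Hk2 and Slc16a3, are known targets of the hypoxia-inducible factor HIF-1.

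HIF-1 binds a short core, ACGTG, which is also contained in the E-box CACGTG bound by Myc and other factors. The 250 bases before each annotated RefSeq start (GRCm38.p6) were searched for ACGTG on both strands, with overlapping matches merged into 1 site. The core was present before at least 1 start of 6 of the 10 genes, against 18.5% of all 27025 genes with such a window and 25.3% of the 9370 whose mean TPM (transcripts per kilobase, scaled to a common total) reached 1. Ldha had 3 sites, of which 2 were full E-boxes, before the upstream of its 2 starts and none before the other. The bases at that upstream start were not found in a GENCODE M21 transcript, while those at the other start were. Ldha counts among the 6 genes by the upstream start alone. Hk2 and Slc16a3 had 2 sites each, and Slc2a1 had 1. Slc16a1 had 1 site, an E-box, and Pkm had 1, before the downstream of its 2 starts. Ldhb, Hk1, Mpc1 and Mpc2 had none in these windows. A match is only a string of letters and says nothing of binding. Shown here, because Ldha and Ldhb encode subunits of the same enzyme, are their windows, with those of Hk2 and Slc16a1 as further windows that hold the core and lie outside GENCODE M21 exons. The Ldha window lies within the annotated span of the gene, and the other 3 lie just before theirs. Each is written 5′ to 3′ on the gene's strand, with capitals marking ACGTG or its reverse complement CACGT.
Ldha, chr7:46845554-46845803, plus strand: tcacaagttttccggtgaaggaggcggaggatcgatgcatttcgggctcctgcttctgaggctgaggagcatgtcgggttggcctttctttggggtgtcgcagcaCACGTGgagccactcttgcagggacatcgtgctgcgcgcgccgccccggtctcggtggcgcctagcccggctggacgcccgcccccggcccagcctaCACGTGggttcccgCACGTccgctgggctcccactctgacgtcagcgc
Ldhb, chr6:142507958-142508207, minus strand: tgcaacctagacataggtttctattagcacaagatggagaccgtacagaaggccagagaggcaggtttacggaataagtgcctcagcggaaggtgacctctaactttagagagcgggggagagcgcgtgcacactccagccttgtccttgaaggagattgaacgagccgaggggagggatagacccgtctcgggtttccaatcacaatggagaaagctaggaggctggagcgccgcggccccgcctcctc
Hk2, chr6:82774455-82774704, minus strand: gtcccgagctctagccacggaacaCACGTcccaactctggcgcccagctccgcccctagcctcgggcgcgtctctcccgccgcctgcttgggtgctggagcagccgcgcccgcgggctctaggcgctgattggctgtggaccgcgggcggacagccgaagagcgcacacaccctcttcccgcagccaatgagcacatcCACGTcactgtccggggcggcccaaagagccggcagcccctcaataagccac
Slc16a1, chr3:104638414-104638663, plus strand: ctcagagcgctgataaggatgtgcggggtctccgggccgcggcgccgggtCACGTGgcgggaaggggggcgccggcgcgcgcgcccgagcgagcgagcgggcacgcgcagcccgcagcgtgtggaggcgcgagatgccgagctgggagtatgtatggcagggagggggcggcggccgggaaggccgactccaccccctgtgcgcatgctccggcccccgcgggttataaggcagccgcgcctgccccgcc

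Sequencing depth was 29283936 counts in replicate 1, 35264901 in replicate 2 and 39198620 in replicate 3. The label names surface markers and no cell type, so markers of several cell types were looked at. Of the hair follicle stem cell markers 10 of 10 reached a mean TPM of 1, and their summed TPM ran from 22918 to 28271. Most of that sum was Krt15, a keratin, with 19607, 25612 and 24405 TPM, and the median over these markers was 137 TPM. Suprabasal epidermis, a differentiated layer, was also represented: 10 of 10 of its markers were detected, with a median of 452 TPM and sums of 7974, 9625 and 12397 TPM in replicates 1 to 3. Of the sebaceous gland markers 7 of 10 were detected, with sums of 220, 256 and 316 TPM. Dissociation response genes summed to 26407, 17062 and 12167 TPM. Fibroblast markers summed to at most 49.0 TPM with Lum and Dpt at 0 counts, and endothelial markers to at most 1.86 TPM with Cdh5, Cldn5 and Emcn at 0 counts. Replicate 1 stood apart: of 13663 genes detected (mean TPM not under 1), 59.6% had their highest value there. In such bulk libraries, fewer cells of a type and less RNA per cell cannot be told apart.

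The 10 genes spanned almost the whole range of expressed genes, from Pkm and Ldha near the top to Slc16a3 below 1 TPM. TPM divides counts by gene length and scales each library to the same total. Levels of different genes can thus be set side by side only as far as the gene length used holds. By mean TPM the order was Pkm, Ldha, Slc2a1, Ldhb, Hk1, Hk2, Mpc1, Mpc2, Slc16a1 and Slc16a3. Of the 9 pairs of neighbours in that order, 6 had ranges over the 3 libraries that did not overlap. The ranges of Pkm and Ldha, of Slc2a1 and Ldhb, and of Mpc1 and Mpc2 overlapped. Hk1 and Hk2 were the pair nearest to overlap among the separate ones, and they did overlap after TMM scaling or after rescaling without mitochondrial and short genes. With the length of the coding transcript in place of the deposited one, the order changed and 4 of 9 pairs of neighbours were separate. Mpc2 then moved from 17.0 to 89.4 TPM.

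**Figure D1:**
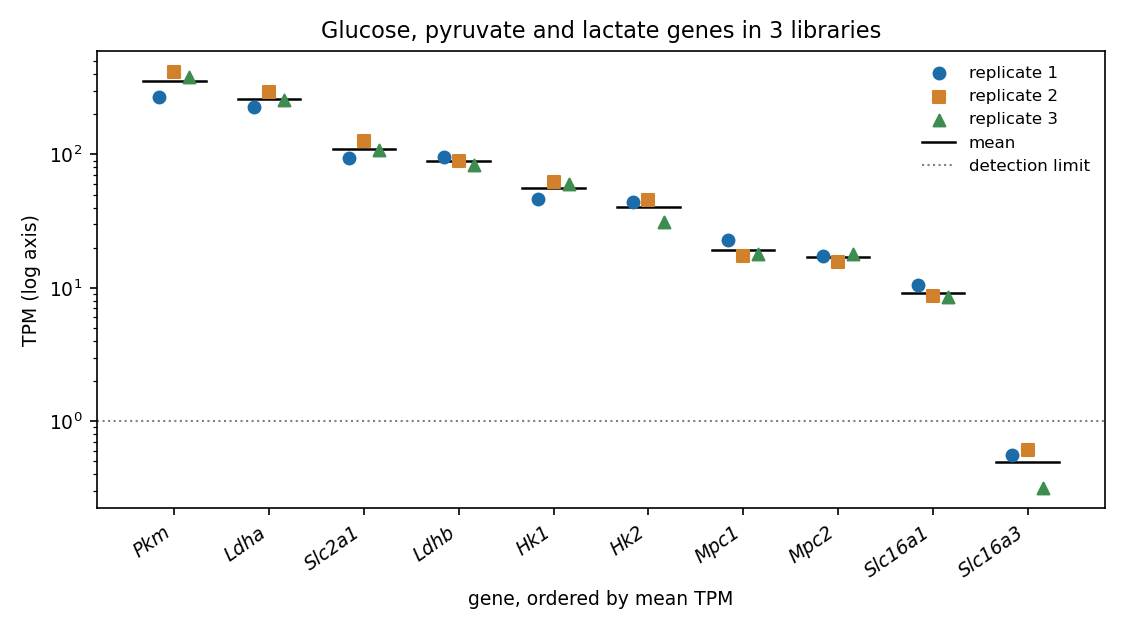
TPM (log axis) of each gene in replicates 1, 2 and 3 (points), with the mean over the 3 libraries as a black bar and a TPM of 1 as a dotted line. Pkm and Ldha lie above 200 TPM in all 3 libraries, and Slc16a3 lies below 1 TPM in all 3.

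Glucose enters most cells through facilitative transporters, of which Slc2a1 (GLUT1) is the common basal form. Slc2a1 (ENSMUSG00000028645, GRCm38 chromosome 4, 119108711 to 119137983, plus strand) had 93.9, 127 and 107 TPM in replicates 1 to 3. The counts behind them were 3547, 6091 and 5806, and the mean level was 109 ± 16.6 TPM (SD, n = 3). It was lowest in replicate 1 and highest in replicate 2. It made up 73.2% ± 1.31 of the summed TPM of the 11 Slc2a genes measured, and that share lay between 71.9% and 74.5%. Slc2a8, an intracellular transporter, followed with 13.7% ± 0.921, and Slc2a3 (GLUT3, a high-affinity form) held 2.29% ± 1.19. The log2 ratio of Slc2a1 to Slc2a3 on the TPM + 1 scale was 4.57, 5.49 and 4.13, so Slc2a1 was higher in 3 of 3 libraries. Slc2a2, the liver and pancreas form, had 0 counts in all 3 libraries. Of the 12 other glucose entry genes, which include the sodium-coupled Slc5a1 and Slc5a2, 6 were detected.

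Hexokinases commit glucose to metabolism. Hk1, the widespread form (ENSMUSG00000037012, chromosome 10, 62268855 to 62379908, minus strand), had 46.0, 62.0 and 60.4 TPM from 4235, 7244 and 7949 counts. Hk2, the form typical of muscle, fat and growing cells (ENSMUSG00000000628, chromosome 6, 82725025 to 82774454, minus strand), had 43.7, 45.3 and 31.3 TPM from 2814, 3703 and 2881 counts. The means were 56.2 ± 8.79 and 40.1 ± 7.68 TPM (SD, n = 3). Hk1 was low in replicate 1, Hk2 was low in replicate 3, and the values of each in the other 2 libraries were close. On the deposited scale both were near equal in replicate 1 and furthest apart in replicate 3, with log2 ratios of 0.07, 0.44 and 0.93. Hk1 held 58.3% ± 7.32 of hexokinase TPM and Hk2 41.7% ± 7.30. These values rested on the gene length used, since the deposited length of Hk1, 8532 bases, was 2.22 times that of its coding transcript in GENCODE M21. With coding transcript lengths, an alternative chosen after seeing the data, the log2 ratios were 1.09, 1.46 and 1.94 and the shares 73.9% and 26.1%. Hk3 had 0 counts in all 3 libraries, and Hkdc1 had 1, 16 and 0 counts.

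Pyruvate kinase was represented by Pkm, with almost nothing from Pklr, the liver and red cell gene. Pkm (ENSMUSG00000032294, chromosome 9, 59656368 to 59679375, plus strand) had 268, 419 and 384 TPM from 14426, 28670 and 29631 counts. Its mean level was 357 ± 79.2 TPM (SD, n = 3). Replicate 1 lay well below the other 2 libraries, by 0.58 on the log2 scale, more than for any other of the 10 genes in that library. The deposited length of Pkm was 2.06 times that of its coding transcript, and with coding transcript lengths its mean was 538 ± 126 TPM. Pkm is known to give 2 enzyme forms, PKM1 and PKM2, by choice between exons, and counts per gene cannot separate them. Pklr had 1, 0 and 0 counts.

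Lactate dehydrogenase RNA came mainly from Ldha, whose subunit is the one typical of lactate-producing tissue. Ldha (ENSMUSG00000063229, chromosome 7, 46841475 to 46855627, plus strand) had 228, 295 and 257 TPM from 8144, 13364 and 13129 counts. Its mean level was 260.1 ± 33.4 TPM (SD, n = 3). Ldhb, whose subunit is typical of heart (ENSMUSG00000030246, chromosome 6, 142490249 to 142507957, minus strand), had 95.7, 90.1 and 83.7 TPM from 1620, 1937 and 2028 counts, a mean of 89.9 ± 5.99 TPM. The ranges did not overlap, and the lowest Ldha value was above the highest Ldhb value. Ldha was lowest in replicate 1, the library in which Ldhb was highest. The log2 ratio of Ldha to Ldhb was 1.25, 1.70 and 1.61, a mean of 1.52 ± 0.24 (higher in 3 of 3 libraries, two-sided exact sign-flip permutation p = 0.25, the smallest 3 libraries allow). Ldha made up 73.1% ± 3.46 of the summed TPM of the 4 Ldh genes, Ldhb 25.4% ± 3.12 and Ldhd, a mitochondrial D-lactate dehydrogenase, 1.48% ± 0.384. With coding transcript lengths the mean log2 ratio was 2.11 and Ldha held 79.6%. Ldhc, the testis form, had 0 counts in all 3 libraries.

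The transporters that move lactate and pyruvate across the plasma membrane were low beside the enzymes that make them. Slc16a1 (MCT1, ENSMUSG00000032902, chromosome 3, 104638668 to 104658462, plus strand) had 10.4, 8.61 and 8.48 TPM from 497, 522 and 579 counts. Its mean level was 9.17 ± 1.08 TPM (SD, n = 3). Slc16a3 (MCT4, the form known for lactate export from glycolytic cells, ENSMUSG00000025161, chromosome 11, 120948480 to 120960868, plus strand) had 0.558, 0.604 and 0.317 TPM. Only 32, 44 and 26 counts lay behind these values, with 95% exact Poisson intervals of 0.382 to 0.788, 0.439 to 0.811 and 0.207 to 0.464 TPM that cover counting error only. Replicate 3 was lowest, and the difference between libraries was not tested. The log2 ratio of Slc16a1 to Slc16a3 on the TPM + 1 scale was 2.87, 2.58 and 2.85, a mean of 2.77 ± 0.16. With Slc16a3 below 1 TPM the pseudocount weighs on this ratio, and with 0.1 in place of 1 the mean was 4.00 ± 0.37. Slc16a7 (MCT2) had 5.45 ± 0.559 TPM and held 32.3% ± 1.33 of the summed TPM of 4 transporters, next to 54.4% ± 3.30 for Slc16a1 and 2.90% ± 0.797 for Slc16a3. Their chaperones were far higher: Bsg (basigin), which carries MCT1 and MCT4 to the membrane, had 486 ± 45.7 TPM and Emb (embigin), the partner of MCT2, had 317 ± 34.7 TPM.

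The mitochondrial pyruvate carrier needs both of its subunits, and their RNA levels were alike on the deposited scale. Mpc1 (ENSMUSG00000023861, chromosome 17, 8282904 to 8297661, plus strand) had 22.8, 17.4 and 17.8 TPM from 512, 496 and 573 counts. Mpc2 (ENSMUSG00000026568, chromosome 1, 165460637 to 165481214, plus strand) had 17.4, 15.7 and 18.0 TPM from 1380, 1577 and 2041 counts. The means were 19.4 ± 3.01 and 17.0 ± 1.22 TPM (SD, n = 3), and the ranges overlapped. The log2 ratio of Mpc1 to Mpc2 was 0.37, 0.14 and -0.01, a mean of 0.17 ± 0.19 (exact sign-flip permutation p = 0.5). That likeness rested on the gene length used. The deposited length of Mpc2 was 7344 bases, 7.16 times the 1025 bases of its coding transcript in GENCODE M21, while for Mpc1 the lengths were 2082 and 961 bases. With coding transcript lengths Mpc2 had 89.4 ± 6.04 TPM and Mpc1 30.6 ± 4.26 TPM, and the log2 ratio became -1.52 ± 0.20, negative in 3 of 3 libraries (exact sign-flip permutation p = 0.25). Among the other genes Hk1 moved from 56.2 to 91.2 TPM, above Slc2a1 at 86.2 TPM, and Pkm, Ldha and Slc16a3 kept their places at the ends of the order.

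Pyruvate faces both exits, and Ldha was above Mpc1 by a log2 ratio of 3.27, 4.01 and 3.78 in replicates 1 to 3 (exact sign-flip permutation p = 0.25). With coding transcript lengths the mean ratio was 3.46 in place of 3.68. Over the 6 ratios tested, the Benjamini-Hochberg adjusted p was 0.3 for the 5 with the same sign in 3 of 3 libraries and 0.5 for Mpc1 to Mpc2, so none could pass a threshold of 0.05 in this design.

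**Figure D2:**
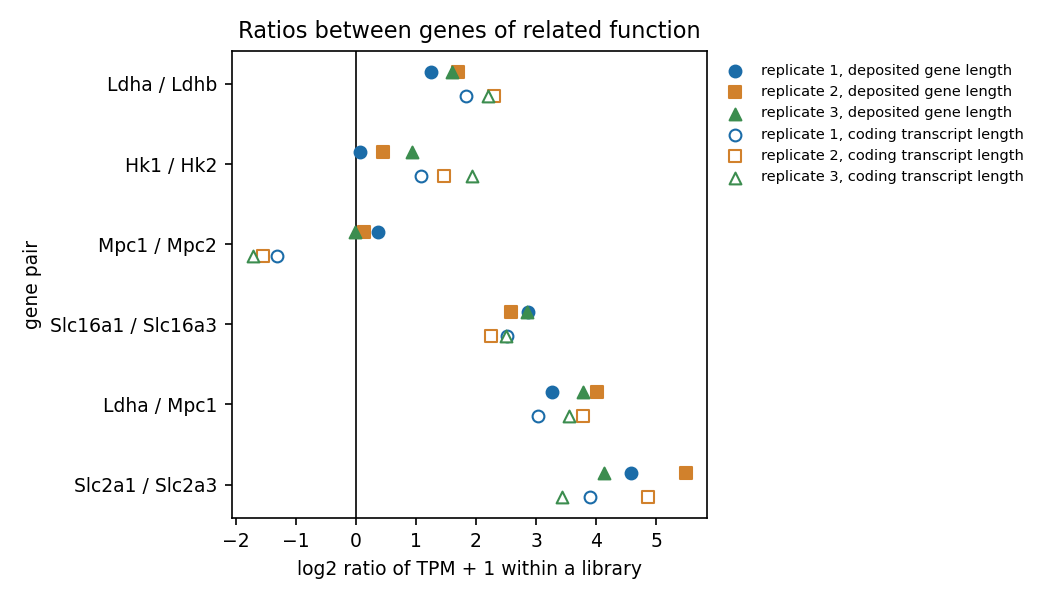
Log2 ratio of TPM + 1 between pairs of genes within each library, with the deposited gene length (filled) and with the coding transcript length (open). The ratio of Mpc1 to Mpc2 lies near 0 with deposited lengths and between -1.70 and -1.31 with coding transcript lengths, and the other 5 ratios stay above 0 in all 3 libraries.

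The genes split in how they varied between libraries. Pkm, Hk1, Slc2a1 and Ldha were lowest in replicate 1, by 0.58, 0.40, 0.31 and 0.27 on the log2(TPM + 1) scale below the mean of the other 2 libraries. Mpc1, Slc16a1 and Ldhb were highest in replicate 1, by 0.36, 0.26 and 0.14. The remaining 3 lay between: Hk2 and Slc16a3 were lowest in replicate 3 and Mpc2 in replicate 2. Among all 13663 detected genes, 25.04% were lowest in replicate 1 and the median deviation there was 0.24 upward, against 0.07 over the 10 genes. After TMM scaling the medians were 0.01 over all detected genes and -0.15 over the 10. Of the suprabasal markers 6 of 10 were lowest in replicate 1, of the hair follicle stem cell markers 6 of 10, and of the dissociation response genes 11 of 12 and of the proliferation markers 9 of 10 were highest in it. The part of these differences in the split was not tested. The coefficient of variation was smallest for Ldhb (6.67%) and Mpc2 (7.13%) and largest for Slc16a3 (31.3%), Pkm (22.2%) and Hk2 (19.1%). The median was 16.1% over 8025 genes with a mean TPM from 10 to 1000, and 22.3% over all 13663 detected genes. Slc16a3, below 1 TPM, lies outside both of these sets.

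**Figure D3:**
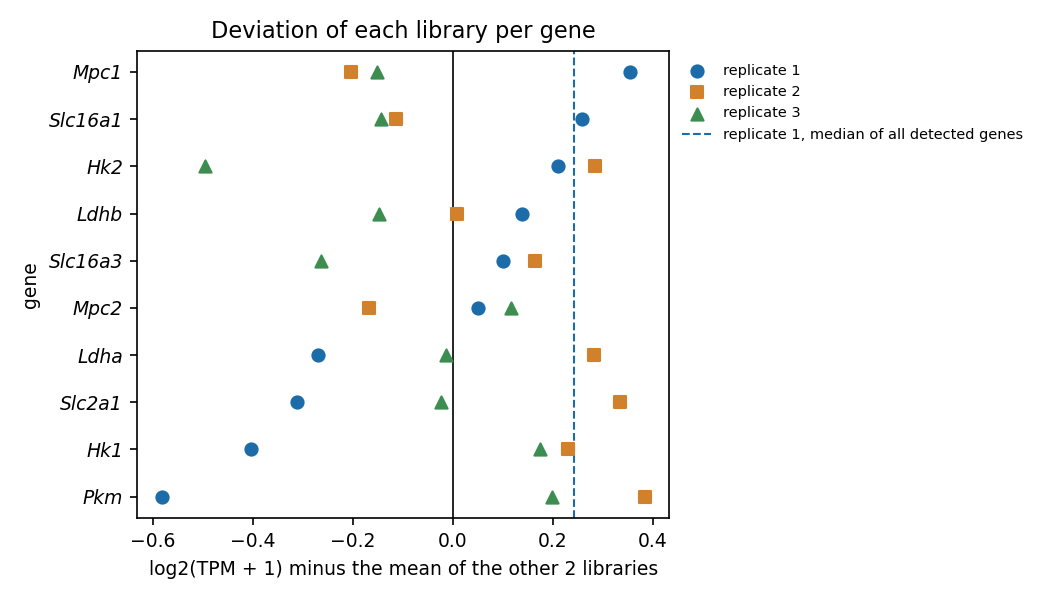
Log2(TPM + 1) of each gene in each library minus the mean of the other 2 libraries, with the median of replicate 1 over all detected genes as a dashed line. Pkm, Hk1, Slc2a1 and Ldha lie left of 0 in replicate 1, while Mpc1 and Slc16a1 lie furthest right.

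Around these genes, 96 further genes of glucose and pyruvate metabolism were listed, and 75 were detected. Between hexokinase and pyruvate kinase, 15 of 16 genes were detected, with at least 1 for every step. Aldoa (aldolase) had 290.6 ± 27.04 TPM, Tpi1 (triose phosphate isomerase) 278 ± 42.7 TPM and Gapdh 232 ± 33.4 TPM. With coding transcript lengths these means were 517, 349 and 550 TPM, so their order rested on the gene length used. All 5 subunits of the pyruvate dehydrogenase complex, which turns mitochondrial pyruvate into acetyl-CoA, were detected. They ran from Pdhx with 8.62 ± 2.04 TPM to Pdhb with 110.4 ± 29.5 TPM. With coding transcript lengths Pdha1 was the highest subunit of this complex, with 89.6 TPM beside 79.1 for Pdhb. Of the kinases that switch this complex off, Pdk2 was highest with 82.1 ± 18.1 TPM and Pdk4 lowest with 3.03 ± 1.51 TPM. Of 7 gluconeogenesis genes Pck1 and G6pc, known from liver, had 0 counts and Fbp1 had 0, 0 and 1, while G6pc3, a widespread form, had 40.6 ± 4.50 TPM, Pck2 18.4 ± 2.90 TPM and Pcx 8.99 ± 0.369 TPM. Txnip, an inhibitor of glucose uptake, had 1172, 279 and 418 TPM, highest in replicate 1.

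**Figure D4:**
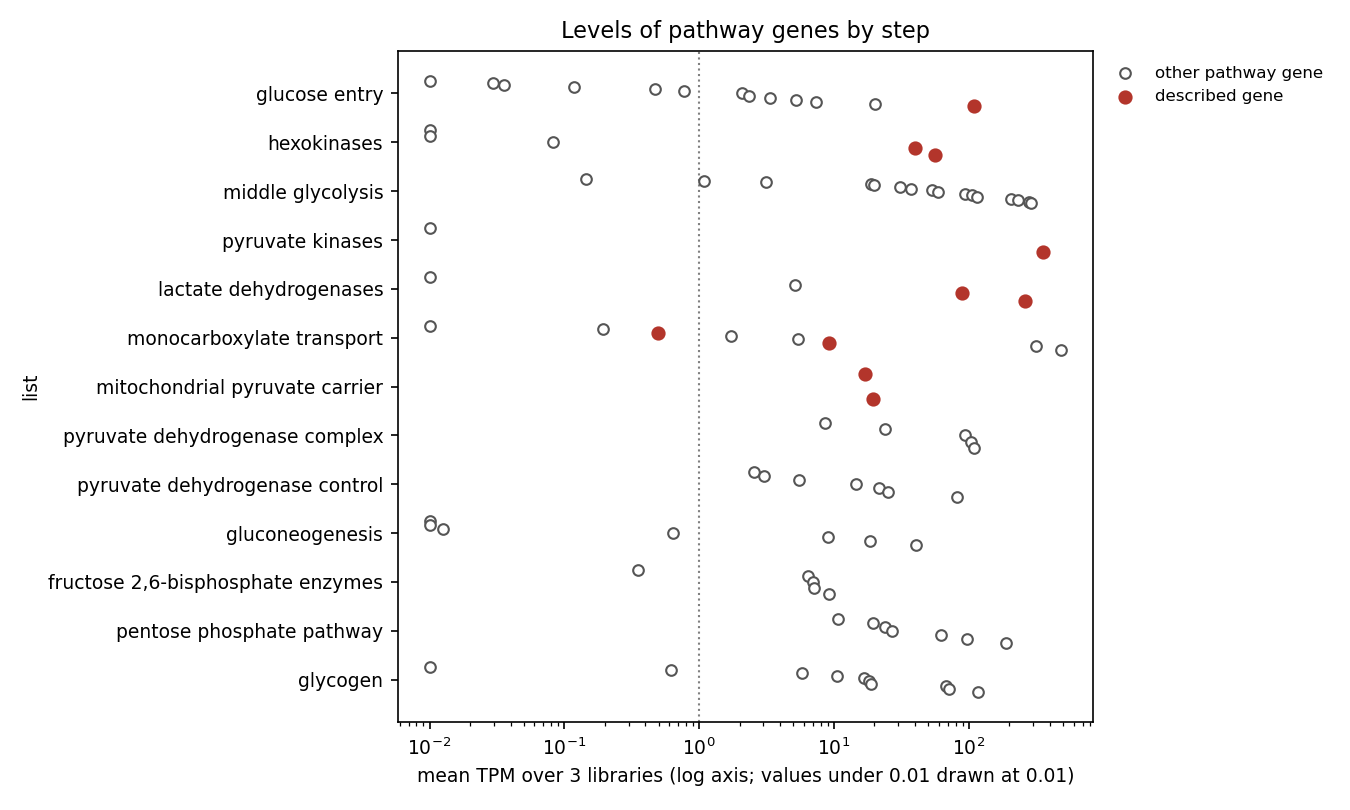
Mean TPM over 3 libraries (log axis) of the 10 genes (filled) and of other genes of the same pathways (open), 1 row per list, with a TPM of 1 as a dotted line. Slc2a1, Hk1, Pkm and Ldha are the highest genes of their lists, and Hk2 comes next after Hk1. Slc16a1 and Slc16a3 lie far below Bsg and Emb.

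The authors' deposited table also gives a log2 fold change and an adjusted p-value per gene. From the names of columns not used here, this comparison was taken to set the Alpha6+/Sca1- libraries against bulge libraries, the bulge being the follicle region that houses the stem cells. All 2555 genes with 0 counts in all 3 libraries and a fold change had a negative one, so positive values were read as higher in Alpha6+/Sca1- cells. Higher values were given for 5 of the 10 genes, lower for none, at an adjusted p under 0.05 in the authors' deposited table. Over all 20274 genes with an adjusted p there, 23.6% were called higher and 32% lower. Among the 13506 of them that were detected, as 9 of the 10 genes were, 35.1% were called higher and 25.6% lower. The median log2 fold change in the authors' deposited table was 0.59 over the 10 genes, -0.36 over all and 0.25 over those detected. At an adjusted p under 0.01 the same table gave 5 of the 10 as higher and none as lower, beside 19.9% and 26.3% of all genes. With a log2 fold change of at least 1 in size it gave 4 and none, beside 19% and 27.3%.

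The 5 higher genes were Pkm, both carrier subunits, Hk1 and Ldhb. In the authors' deposited table Pkm had a log2 fold change of 1.72 (adjusted p = 1.27e-09), Mpc2 1.38 (adjusted p = 5.16e-07), Mpc1 1.31 (adjusted p = 6.5e-05), Hk1 1.197 (adjusted p = 8.06e-05) and Ldhb 0.90 (adjusted p = 0.000235). The other 5 had smaller values: Slc16a1 0.28 (adjusted p = 0.512), Slc2a1 0.08 (adjusted p = 0.803), Hk2 0.07 (adjusted p = 0.791), Ldha 0.02 (adjusted p = 0.935) and Slc16a3 -0.50 (adjusted p = 0.553). Within the isozyme pairs of the authors' deposited table, Ldhb was called and Ldha was not, and Hk1 was called and Hk2 was not. Whether the fold changes within a pair differ was not tested, since the table gives no standard errors and the bulge libraries were not used. The 5 genes that were not called each had an ACGTG core before a start, and of the 5 called genes Pkm did. For Ldha this held only for the upstream start, whose bases were not found in a GENCODE M21 transcript. The share with the core among all called and all uncalled genes was not computed, so this split has nothing to be read against. It is a description of these windows, with no test. Suprabasal markers were higher for 9 of 10 in the same comparison, with a median log2 fold change of 3.21 in the authors' deposited table, and hair follicle stem cell markers were higher for 2 and lower for 4 of 10. Sebaceous gland markers were higher for 4 of 9 and lower for none, and dissociation response genes were higher for 10 of 12. The part of such cells, or of dissociation, in the values above was not tested.

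**Figure D5:**
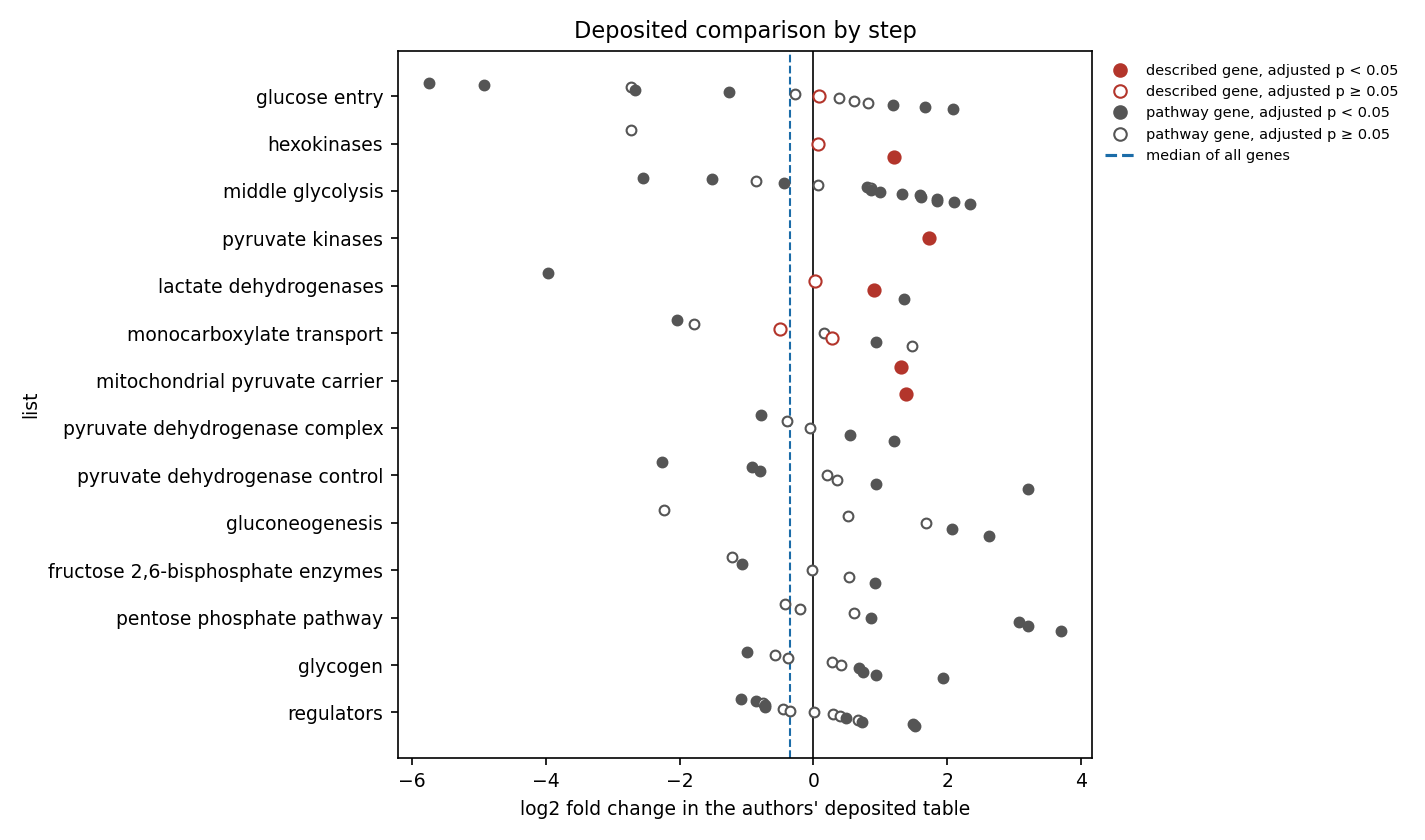
Log2 fold change in the authors' deposited table for the 10 genes (red) and other pathway genes (grey), 1 row per list, filled where the adjusted p was under 0.05, with the median of all genes as a dashed line. Pkm, Mpc1, Mpc2, Hk1 and Ldhb are filled and lie right of 0, and Ldha, Hk2 and Slc2a1 lie at 0.02 to 0.08.

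Of the 89 further pathway genes with an adjusted p in the authors' deposited table, 34 were called higher, 19 lower and 36 neither. The shares beside them were 35.1% higher and 25.6% lower over detected genes, and 23.6% and 32% over all. The counts per list given below have the same shares beside them, and none was tested. The median log2 fold change of the 89 genes was 0.39, beside 0.25 over detected genes and -0.36 over all. The middle steps of glycolysis had 10 higher and 3 lower of 16, with Tpi1 at 2.34 (adjusted p = 1.26e-16), Pfkl (liver-type phosphofructokinase) at 2.09 (adjusted p = 3.08e-11) and Aldoa at 1.85 (adjusted p = 7.31e-13). Eno2 and Gapdh were among the lower genes, and Gapdh, named for its use as a reference gene after its value was seen, had -0.44 (adjusted p = 0.027) in the authors' deposited table. The pentose phosphate pathway, which branches from glucose 6-phosphate to give NADPH and ribose, had 4 of 7 higher and none lower. Its values in the authors' deposited table were 3.69 for Pgls, 3.20 for Taldo1 and 3.08 for Tkt.

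Genes near the exits of pyruvate moved both ways in the authors' deposited table. Pcx (pyruvate carboxylase) had 2.63 (adjusted p = 3.33e-10) and Pck2 had 2.06 (adjusted p = 8.99e-08), while Slc16a7 had -2.04 (adjusted p = 1.19e-25). Of the pyruvate dehydrogenase subunits Pdha1, at 1.204, and Pdhb were higher and Dlat was lower. Among their regulators Pdk4, an inhibitory kinase, had 3.20 (adjusted p = 0.00012) and Pdp2, an activating phosphatase, had -2.26 (adjusted p = 8.31e-17). The chaperone Bsg was higher at 0.94 (adjusted p = 8.26e-05), and Emb, at 0.15, was not called (adjusted p = 0.542). In glycogen metabolism 4 of 9 were higher, Pgm2 at 1.94 the most. Of the 15 regulators 4 were higher and 4 lower in the authors' deposited table. Arnt, the partner of HIF-1 alpha, had -1.09 (adjusted p = 6.21e-09) and Hif1a, named after its value was seen, had -0.73 (adjusted p = 0.0012). Egln2 and Vhl, which mark HIF-1 alpha for degradation, had 1.51 (adjusted p = 1.38e-07) and 1.48 (adjusted p = 0.000406). Hif1an had 0.72 (adjusted p = 0.0047). Other genes of the HIF group were not called: Egln1 had 0.01 (adjusted p = 0.968), Egln3 0.29 (adjusted p = 0.438) and Epas1 -0.46 (adjusted p = 0.255).

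A further deposited column carries the name of H3K27me3, a repressive histone mark, and states no unit. Its value was above 0 for 1 of the 10 genes, Slc16a3, at 2055 in the authors' deposited table, and at 0 for the other 9. Over all genes 8.06% had a value above 0, with a median of 7605 among those, and among detected genes the share was 3.29%. Slc16a3 was also the gene of the 10 that was not detected by that limit. Near copies can draw reads away from a gene, and 5 of the 10 had annotated pseudogenes of at least 90% identity. Ldha had 10 such pseudogenes, Pkm 7, Mpc1 3, and Ldhb and Mpc2 1 each. Counts assigned to these copies in the table came to at most 0.483% of those of Pkm, 0.0533% of those of Ldha and 4.64% of those of Mpc1, in each case lowest in replicate 1. Only 6 of the 10 copies of Ldha, 5 of 7 of Pkm and 2 of 3 of Mpc1 were among the genes measured. The copy of Ldhb was measured and had 0 counts, and that of Mpc2 was not measured. How reads matching several places were treated was not stated, and reads that were dropped would count for neither place. These shares therefore set no bound on what the 5 genes may have lost. The strand setting of the counting was not stated either, so reads of a gene and of an overlapping antisense gene cannot be told apart. Such genes had few counts: Gm12867 and Gm12868 opposite Slc2a1 had 37, 122 and 69 and 18, 37 and 33, Hk1os had 39, 13 and 35, 4930506C21Rik opposite Mpc1 had 25, 0 and 11, and Gm17034 opposite Hk2 had 6, 1 and 0.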

How the data were processed

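RNA from 3 samples of 1 group was measured. The 10 genes and the gene lists were chosen with earlier results of these data known. The authors deposited whole-number counts per gene and TPM, per the file headers. The submitters' processing notes name TopHat2, SAMtools, FastQC, DESeq2 and DESeq and the builds mm10 and GRCm38; the counting tool, its strand setting and its treatment of multiply mapped reads were not given in the sources used here. The log2 fold change and its adjusted p-value were also deposited by the authors, with no tool stated for either column. Another 6 columns of per-sample values, named for bulge, match no sample and were not used, so that comparison was not refitted. The deposited gene length equalled the GENCODE M21 union of exons for 88.9% of the 44392 identifiers found there.

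Recomputing TPM from counts and length gave the deposited TPM to within 4.72e-06. For symbols with several entries, the one with the highest mean TPM was kept. Means and SDs are over 3 libraries. Ratios used log2(TPM + 1), which understates changes of low genes, with two-sided exact sign-flip permutation tests. Called genes had a deposited adjusted p under 0.05. From each pathway list, the gene with the highest mean TPM and up to 4 called genes with the largest log2 fold changes of at least 1 in size could be named. Related genes of the same families, and Emb, Dlat, Pdhx, Gapdh, Hif1a, Hif1an, Egln1, Egln3, Epas1, Pck1, G6pc and Fbp1, were named after their values were seen. Alternatives were TMM scaling (edgeR 4.0.16), TPM without mitochondrial genes and genes under 200 bases, a pseudocount of 0.1, other limits, each replicate left out and, chosen after seeing the data, the GENCODE length of the transcript with the longest coding sequence. The statistics were tested on simulated data. Some genes of the lists are not reported here. Pseudogene copies were found with blastn 2.17.0 (identity of at least 90% over at least 80% of the copy). Coordinates and strands come from GENCODE M21 (GRCm38) by identifier.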

Additional observations from a re-analysis of the deposited data

How the results depend on the processing

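Of 143 recomputed values, 121 kept their call: levels and deviations stayed within the spread between libraries, counts within 1.5 times, and ratios kept their sign. Ratios could still move in size: with coding transcript lengths Ldha to Ldhb went from 1.52 to 2.11, Hk1 to Hk2 from 0.48 to 1.50 and Slc2a1 to Slc2a3 from 4.73 to 4.07, and with a pseudocount of 0.1 Slc16a1 to Slc16a3 went from 2.77 to 4.00. One ratio turned: Mpc1 to Mpc2 went from 0.17 to -1.52 with coding transcript lengths, by the construction of that alternative. The median level of the 10 genes, 48.1 TPM, moved to 55.7 without mitochondrial and short genes and to 82.7 with coding transcript lengths; these 2 alternatives shifted the median of all detected genes by 0.18 and -0.18 on the log2 scale. The median deviation of replicate 1 over the 10 genes moved from 0.07 to -0.15 with TMM scaling, and that over all genes from 0.24 to 0 without a filter on low values. Requiring a log2 fold change of at least 1 in size took the further pathway genes called higher in the deposited comparison from 34 to 22 and those called lower from 19 to 11. With that size 4 of the 10 genes were called higher, Ldhb falling out, and at an adjusted p under 0.01 all 5 were. Leaving out each replicate reversed no ratio. The deposited comparison could not be refitted without replicate 1. No paired analysis was possible because the samples form 1 group.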
